A study of Mus musculus with 6 samples.

Results

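The 9 genes described here encode 4 ligands of the vascular endothelial growth factor (VEGF) family (Vegfa, Vegfb, Vegfc and Pgf), the 3 VEGF receptor tyrosine kinases (Flt1, Kdr and Flt4) and the 2 neuropilin co-receptors (Nrp1 and Nrp2). They were taken by name and matched by Ensembl identifier among the 55536 genes listed for each library, and 7 of the 9 reached the filter on low values described below. RNA was sequenced from SVEC4-10 cells, a mouse line of lymph node vessel endothelium immortalised with SV40, grown throughout in medium with serum. Nattokinase, a serine protease of Bacillus subtilis that digests fibrin, was added for 24 hours before 3 of the libraries, at a dose the labels leave out, and the other 3 libraries are untreated controls. Whether replicates were grown separately is not labelled, and the p-values then reflect the spread between these libraries alone, which may be technical.

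VEGF-A acts mainly through the receptor encoded by Kdr, which drives endothelial growth, migration and permeability. The receptor encoded by Flt1 binds VEGF-A, VEGF-B and placental growth factor tightly but signals weakly, and a soluble form of it without a kinase acts as a trap for VEGF-A. VEGF-C and VEGF-D bind the receptor encoded by Flt4, which in adults marks lymphatic endothelium, and the neuropilins bind both VEGFs and class 3 semaphorins.

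Of the 9 genes, Flt1 was the one called different between the groups. By the ratio of mean levels it was 1.86-fold higher in nattokinase-treated cells. For Vegfa, Vegfb, Vegfc, Flt4, Nrp1 and Nrp2 the estimates lay between −0.064 and 0.081 on the log2 scale and none was called. Kdr and Pgf were too scarce to test. A gene was tested where it had at least 1 FPKM (reads scaled by exon length in kilobases and by library total) in at least 3 libraries, with limma on log2(FPKM + 1), and was called at a Benjamini-Hochberg adjusted p under 0.05 over the 10913 genes tested. Called members were 1 higher and 0 lower of 7 tested (at an unadjusted p under 0.05 also 0 were lower), where the whole comparison called 8.85% of genes, 5.61% as higher and 3.24% as lower. Of all calls 63.4% were higher, and 49.0% after rescaling to equal totals on protein-coding genes, while the called members stayed at 1 higher and 0 lower under that rescaling.

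**Figure D1:**
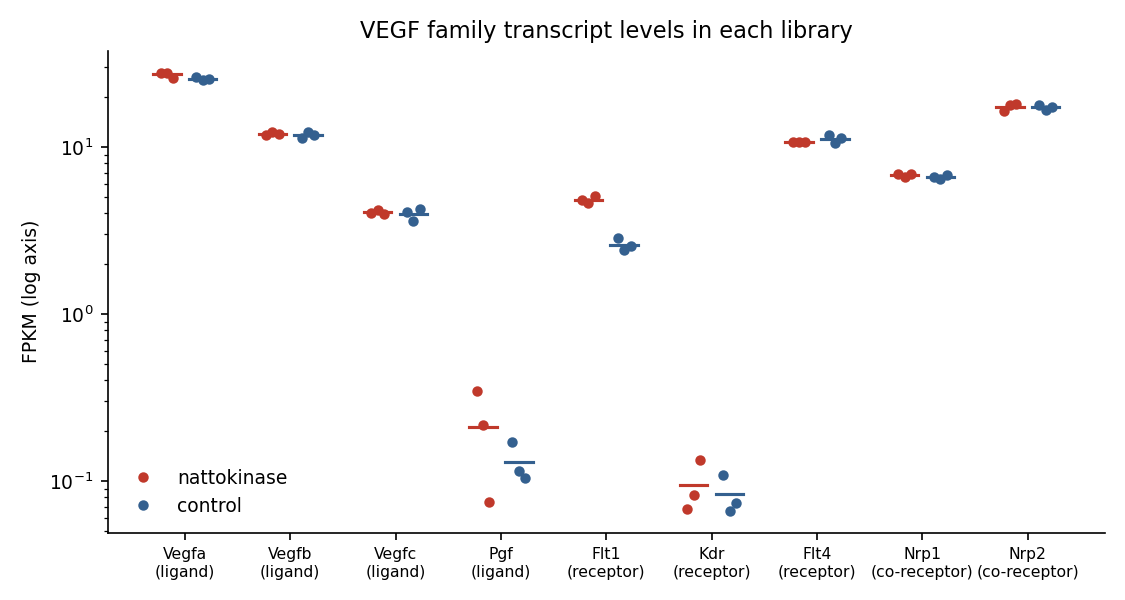
FPKM of each gene (vertical axis, logarithmic) in the 3 nattokinase libraries (red, left) and the 3 control libraries (blue, right), with a point per library and a bar at the group mean. The groups are apart for Flt1, at 4.64 to 5.05 FPKM with nattokinase and 2.41 to 2.86 FPKM in the controls, and overlap for the other 8 genes.

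Each library held between 15044778 and 18341370 reads assigned to genes, as recovered from the FPKM values. Control libraries carried more reads of the 18S-like gene CT010467.1, which took 0.555% ± 0.048 of reads with nattokinase and 2.46% ± 0.54 in the controls (SD, n = 3 each), and protein-coding genes took 98.3% ± 0.044 with nattokinase and 95.99% ± 0.66 in the controls. Of 16 fixed endothelial markers 0 reached the filter. Tie1, Erg, Cldn5, Emcn and Sox17 had 0 reads throughout, a count that allows at most 3 reads (1.64e-05% to 1.99e-05% of a library, counting error alone), and Pecam1 and Cdh5 had at most 3 reads and 1 read. The summed level of the list was 1.46 to 1.64 FPKM with nattokinase and 1.30 to 2.04 FPKM in the controls, led by Sox18, Eng and Egfl7. Of 9 measured lymphatic markers 4 reached the filter, led by Pdpn and Nr2f2, with a sum of 111 to 117 FPKM with nattokinase and 127 to 137 FPKM in the controls. Prox1, Lyve1, Reln and Thy1 of that list had 0 reads. Of 15 fibroblast and mural cell markers 10 reached it, led by Col1a1, Fn1 and Acta2, with a sum of 3534 to 3670 FPKM with nattokinase and 3155 to 3366 FPKM in the controls. Its members moved in both directions: Acta2, smooth muscle actin, rose to 907 ± 14 FPKM with nattokinase, against 459 ± 23 FPKM in the controls (limma adjusted p = 8.8e-06), and the collagen gene Col3a1 fell to 95.8 ± 1.1 FPKM with nattokinase, against 144 ± 2.6 FPKM in the controls (limma adjusted p = 7.7e-05). Fn1 (762 ± 50 FPKM with nattokinase and 636 ± 56 FPKM in the controls) and Col1a1 (1236 ± 36 FPKM with nattokinase and 1403 ± 67 FPKM in the controls) were not called (SD, n = 3 each). Of 8 leukocyte markers 1 did, Cd68, with a list sum of 2.36 to 2.80 FPKM with nattokinase and 1.26 to 1.604 FPKM in the controls, while Ptprc, Adgre1, Itgam and Cd3e had 0 reads. Of 8 epithelial markers 2 did, Krt8 and Krt14, with a sum of 7.31 to 8.92 FPKM with nattokinase and 6.48 to 7.87 FPKM in the controls, and Krt5 and Cldn4 had 0 reads. Thus the junctional gene Cdh5, CD31 (Pecam1) and the lymphatic regulator Prox1 were at or near 0 in cells labelled endothelial, although Flt4, Flt1 and Nrp2 were measurable in the same libraries. The receptor gene Kdr was scarce there, at 9 to 22 reads per library.

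The stretch just before the start of each of the 3 receptor genes is shown here because 1 of them changed and the other 2 were not called or not tested. The lines give the 250 bases upstream of the RefSeq start on GRCm38.p6, 5′ to 3′ on the gene's strand. They lie at chr5:147726012-147726261 (minus strand) for Flt1, chr5:75978456-75978705 (minus strand) for Kdr and chr11:49609429-49609678 (plus strand) for Flt4. Capitals mark matches to any of 11 motifs, searched on both strands.
Flt1: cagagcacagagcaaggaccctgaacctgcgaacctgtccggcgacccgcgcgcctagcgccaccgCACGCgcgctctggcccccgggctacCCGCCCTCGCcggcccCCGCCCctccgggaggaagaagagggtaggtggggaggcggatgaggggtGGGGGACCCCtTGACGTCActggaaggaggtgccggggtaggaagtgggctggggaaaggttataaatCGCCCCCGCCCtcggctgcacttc
Kdr: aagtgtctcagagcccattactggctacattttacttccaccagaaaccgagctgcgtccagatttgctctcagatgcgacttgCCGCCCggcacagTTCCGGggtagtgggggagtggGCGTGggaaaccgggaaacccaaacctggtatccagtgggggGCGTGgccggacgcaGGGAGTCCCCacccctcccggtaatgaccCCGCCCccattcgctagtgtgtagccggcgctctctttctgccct
Flt4: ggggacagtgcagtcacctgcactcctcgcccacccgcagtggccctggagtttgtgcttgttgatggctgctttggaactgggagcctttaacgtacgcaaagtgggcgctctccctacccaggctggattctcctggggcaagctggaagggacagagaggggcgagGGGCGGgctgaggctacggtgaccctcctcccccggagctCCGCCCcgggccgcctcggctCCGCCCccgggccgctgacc
The motifs were the cyclic AMP response element TGACGTCA, hypoxia response cores ACGTG and GCGTG, AP-1 TGANTCA, EGR GCGNGGGCG, TEAD GGAATG, NFAT GGAAAA, ETS CCGGAA, SP1 GGGCGG, and the NF-kB motif and CArG box by name. The Flt1 window held the cyclic AMP response element from base −81 to −74 before the start, which 1.55% of 32851 RefSeq windows of the same length hold. It also held the EGR motif from −157 to −149 and from −24 to −16 (4.70% of windows hold at least 1 match), overlapping SP1 matches at both places, a further SP1 match from −142 to −137, the GCGTG core on the other strand from −184 to −180, and an NF-kB match from −92 to −83 (3.90%). The Kdr window held an NF-kB match from −74 to −65, an ETS match from −153 to −148 (12.0% of windows) the GCGTG core at −131 and −89 (28.2%), and SP1 matches from −166 to −161 and from −45 to −40. The Flt4 window held SP1 matches alone (32.7% of windows). Windows of other members that were not called also held an EGR match, from −120 to −112 in Vegfb and from −22 to −14 in Vegfc. A Vegfa window held an NF-kB match from −118 to −109. The GC content was 70.4% for Flt1, 61.6% for Kdr and 68.4% for Flt4, against a median of 52.4% over all windows. The shares of windows were not matched for GC content. A match is a string of letters and not a shown binding site.

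Flt1 (ENSMUSG00000029648; chromosome 5, 147561604 to 147726011, minus strand, GRCm38) had 4.84, 4.64 and 5.05 FPKM in nattokinase replicates 1, 2 and 3, against 2.86, 2.41 and 2.54 FPKM in control replicates 1, 2 and 3. The lowest treated library lay above the highest control, so the groups did not overlap. The means were 4.84 ± 0.21 FPKM with nattokinase and 2.60 ± 0.23 FPKM in the controls (SD, n = 3 each), from 1097 to 1252 reads per nattokinase library and 490 to 626 reads per control library. The log2 fold change was 0.70 (SE 0.069, 95% interval 0.54 to 0.85, limma adjusted p = 0.00033), and it ranked 36 by size among the 612 genes called higher. Its interval did not reach that of any other tested member, of which the highest bound was 0.18 for Vegfa. As a fold, the Flt1 interval on log2(FPKM + 1) was 1.46 to 1.81, below the 1.86 ratio of mean FPKM. The added 1 FPKM understates changes of low genes. With values rescaled to protein-coding totals the log2 fold change was 0.67, so the difference was nearly as large with the 18S-like reads left out of the totals. The summed endothelial and epithelial marker lists overlapped between the groups. The fibroblast and mural list was higher with nattokinase without overlap, largely through Acta2 (907 ± 14 FPKM, against 459 ± 23 FPKM in the controls). Col1a1 and Col3a1 of that list were lower. The lymphatic list was lower without overlap, largely through Pdpn (102 ± 2.7 FPKM with nattokinase, against 119 ± 6.0 FPKM in the controls). Nr2f2 of that list had 10.3 ± 0.59 FPKM with nattokinase and 10.4 ± 1.1 FPKM in the controls. The leukocyte list was also higher without overlap, through Cd68, at 2.42 ± 0.35 FPKM with nattokinase and 1.19 ± 0.33 FPKM in the controls, with the pan-leukocyte gene Ptprc at 0 reads throughout. The part of these lists in the Flt1 difference was not tested. In bulk libraries fewer cells of a type and less RNA per cell cannot be told apart.

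The deposited value pools all Flt1 transcripts. GENCODE M21 lists 6 of them, of which 2 are coding, one with 30 exons and 6895 bases and one with 13 exons and 6292 bases. Their merged exons span 13504 bases, the length behind the FPKM. Full-length and shorter forms could not be separated in values per gene.

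Flt4 (ENSMUSG00000020357; chromosome 11, 49609263 to 49652739) was the most abundant VEGF receptor transcript, with 10.6, 10.6 and 10.8 FPKM in the nattokinase libraries and 11.8, 10.6 and 11.2 FPKM in the controls. The treated libraries lay inside the range of the controls. The log2 fold change was −0.064 (SE 0.054, 95% interval −0.18 to 0.057, limma adjusted p = 0.54). Kdr (ENSMUSG00000062960; chromosome 5, 75932827 to 75978458) had 11, 13 and 22 reads with nattokinase, or 0.068, 0.082 and 0.133 FPKM, and 16, 9 and 11 reads in the controls, or 0.109, 0.066 and 0.074 FPKM. The groups overlapped, and the summed reads were 46 with nattokinase (exact Poisson 95% interval 33.7 to 61.4) and 36 in the controls (25.2 to 49.8), intervals that cover counting error only. With so few reads these intervals are wide, and a moderate difference in either direction could have been missed.

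Flt1 made up a larger part of the receptor transcripts with nattokinase. This summary was chosen after the values were seen and carries no test. Flt1 took 30.2% to 31.7% of the summed FPKM of the 3 receptors in the nattokinase libraries and 18.3% to 19.3% in the controls. Flt4 took 67.5% to 69.3% with nattokinase and 79.95% to 81.2% in the controls, and Kdr at most 0.832% of either. Flt4 stood at 2.21 ± 0.084 times the Flt1 level with nattokinase and 4.32 ± 0.16 times in the controls (SD, n = 3 each). These shares and ratios depend on the length used. Divided by the longest coding transcript, Flt4 stood at 14.1 ± 0.098 and Flt1 at 9.49 ± 0.41 with nattokinase. In the controls they stood at 14.8 ± 0.83 and 5.10 ± 0.45 by that length (SD, n = 3 each).

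**Figure D2:**
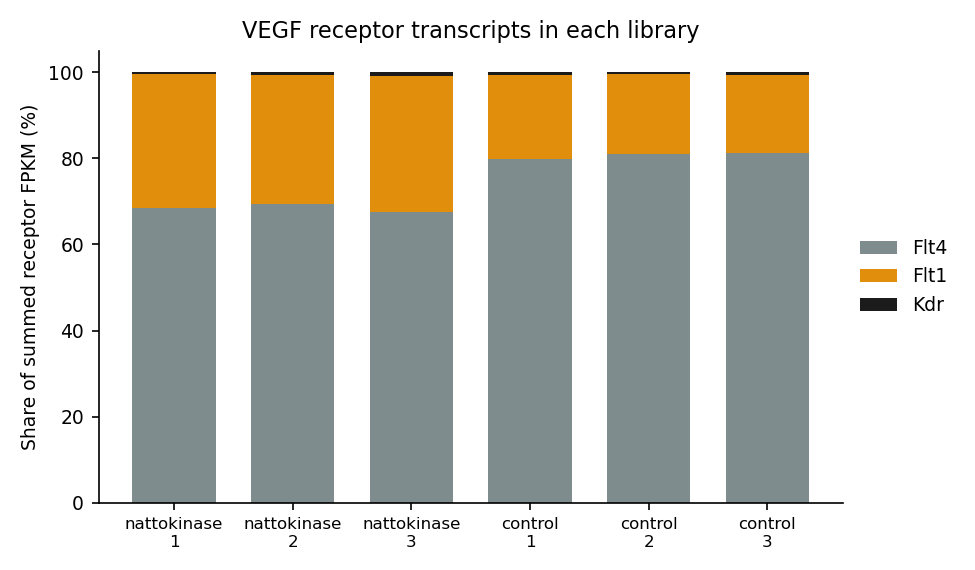
Share of the summed FPKM of Flt4, Flt1 and Kdr (vertical axis, percent) in each of the 3 nattokinase libraries (left) and 3 control libraries (right). The Flt1 share is 30.2% to 31.7% with nattokinase and 18.3% to 19.3% in the controls, and Kdr is a thin band at the top of each bar. The shares rest on merged exon lengths.

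Among the ligands, Vegfa (ENSMUSG00000023951; chromosome 17, 46016993 to 46032369), which encodes the main angiogenic ligand, was the most abundant. It had 27.6, 27.8 and 26.0 FPKM with nattokinase and 26.2, 25.1 and 25.5 FPKM in the controls. Nattokinase replicate 3 lay below control replicate 1 and the other treated libraries lay above all controls. The means of 27.1 ± 0.98 FPKM with nattokinase and 25.6 ± 0.54 FPKM in the controls gave a log2 fold change of 0.081 (SE 0.046, 95% interval −0.021 to 0.18, limma adjusted p = 0.33), which was not called.

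Vegfb (ENSMUSG00000024962; chromosome 19, 6982473 to 6987651), whose product binds Flt1 and Nrp1, had 11.7, 12.3 and 11.9 FPKM with nattokinase and 11.3, 12.2 and 11.9 FPKM in the controls. Vegfc (ENSMUSG00000031520; chromosome 8, 54077606 to 54187096), the lymphangiogenic ligand of Flt4, had 4.01, 4.22 and 3.94 FPKM with nattokinase and 4.06, 3.61 and 4.26 FPKM in the controls. Both sets of libraries overlapped, with log2 fold changes of 0.019 (95% interval −0.095 to 0.13) for Vegfb and 0.025 (−0.13 to 0.18) for Vegfc (limma adjusted p = 0.87 for each). Both estimates lay close to the median of all genes tested, 0.012, and the sign of each turned negative after rescaling to protein-coding totals.

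Pgf (ENSMUSG00000004791; chromosome 12, 85166635 to 85177790), which encodes placental growth factor, a ligand of Flt1, had 18, 11 and 4 reads with nattokinase, or 0.344, 0.216 and 0.075 FPKM. The controls had 8, 5 and 5 reads, or 0.170, 0.114 and 0.104 FPKM. The nattokinase libraries held both the highest and the lowest value, so the groups overlapped. The summed reads were 33 with nattokinase (exact Poisson 95% interval 22.7 to 46.3) and 18 in the controls (10.7 to 28.4). When all genes above 0 were tested, the limma adjusted p was 0.69 for Pgf and 0.91 for Kdr. On log2(FPKM + 1) their log2 fold changes there were 0.096 (95% interval −0.14 to 0.33) and 0.014 (−0.095 to 0.12). The added 1 FPKM is well above the level of both genes, so these values and intervals understate relative changes. Ratios of mean FPKM, nattokinase over control, were 1.63 for Pgf and 1.13 for Kdr. The log2 difference in Pgf was 0.018 without nattokinase replicate 1 and 0.18 without nattokinase replicate 3, and that in Kdr was −0.011 without nattokinase replicate 3.

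The mix of ligand transcripts was similar in both groups. Vegfa took 62.6% ± 0.57 of the summed FPKM of the 4 ligands with nattokinase and 61.7% ± 0.95 in the controls (SD, n = 3 each). The ratio of Vegfc to Vegfa FPKM was 0.145, 0.152 and 0.151 with nattokinase and 0.155, 0.144 and 0.167 in the controls. The means of 0.149 ± 0.0036 with nattokinase and 0.155 ± 0.012 in the controls differed by less than the spread between control replicates (two-sided exact permutation p = 0.50, where 3 against 3 libraries cannot go below 0.10).

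Nrp2 (ENSMUSG00000025969; chromosome 1, 62703285 to 62818695), the co-receptor for VEGF-C in lymphatic vessels, had 16.4, 17.9 and 18.04 FPKM with nattokinase and 17.9, 16.7 and 17.2 FPKM in the controls. Nrp1 (ENSMUSG00000025810; chromosome 8, 128358604 to 128503363), a co-receptor for VEGF-A and for semaphorin 3A, had 6.90, 6.58 and 6.93 FPKM with nattokinase and 6.62, 6.43 and 6.75 FPKM in the controls. The libraries of the groups overlapped for both neuropilins. The log2 fold changes were 0.010 (95% interval −0.11 to 0.13, limma adjusted p = 0.94) for Nrp2 and 0.038 (−0.081 to 0.16, limma adjusted p = 0.74) for Nrp1, and that of Nrp2 turned negative under 3 other scalings. The ratio of Nrp1 to Nrp2 FPKM was 0.421, 0.367 and 0.384 with nattokinase and 0.369, 0.384 and 0.391 in the controls (two-sided exact permutation p = 0.90, smallest possible 0.10). Exons of Nrp1 overlap those of Mir1903 over 80 bases, and exons of the other 8 genes overlap no other annotated gene.

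**Figure D3:**
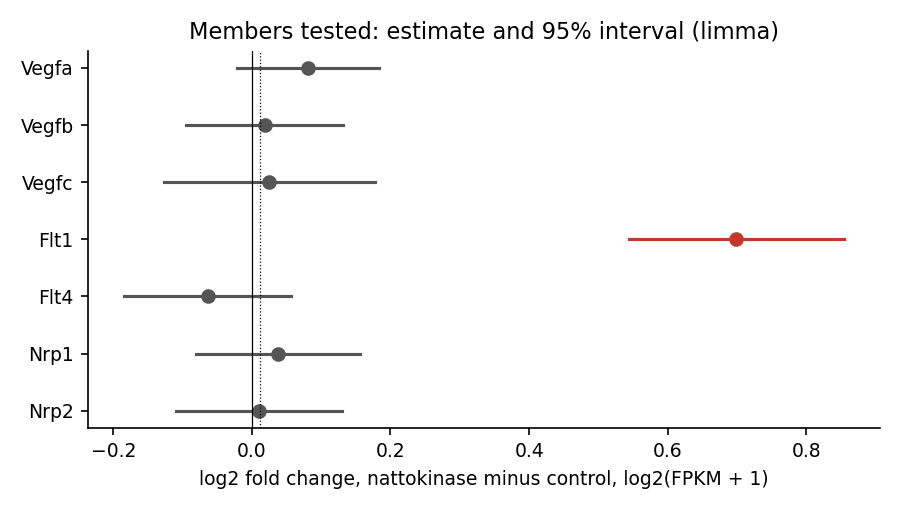
Log2 fold change (horizontal axis, nattokinase minus control on log2(FPKM + 1)) of the 7 genes tested, as a point with its 95% interval from limma, and a dotted line at the median of all genes tested. Flt1 stands at 0.70 (0.54 to 0.85), and the intervals of the other 6 genes include 0.

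Per length, the order of the transcripts over the 6 libraries was Vegfa at 26.4 ± 1.1 FPKM, Nrp2 at 17.4 ± 0.71, Vegfb at 11.9 ± 0.35, Flt4 at 10.95 ± 0.50, Nrp1 at 6.70 ± 0.19, Vegfc at 4.01 ± 0.23, Flt1 at 3.72 ± 1.2, Pgf at 0.171 ± 0.099 and Kdr at 0.0887 ± 0.027 FPKM (SD, n = 6). Ranges of the neighbours Vegfb and Flt4, Vegfc and Flt1, and Pgf and Kdr overlapped, and the other neighbours were separate. Within groups Flt1 lay above Vegfc in the nattokinase libraries and below it in the controls, without overlap in either group. The order depends on the length used. Divided by the longest coding transcript of each gene, a choice made after seeing the data, Nrp1 stood at 18.2 ± 0.53 and took the third place, Nrp2 stood at 30.6 ± 1.2 beside Vegfa at 32.7 ± 1.4, and Flt1 at 7.29 ± 2.4 stood above Vegfc at 4.01 ± 0.23 (SD, n = 6). Such a change of length leaves every fold between groups as it is.

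The rise of Flt1 held its call in all 15 alternative fits, in which its log2 fold change ran from 0.66 to 0.90. The highest values, 0.87 and 0.90, came with a pseudocount of 0.1 and with limma-voom on the recovered reads, which shrink a low gene less than a pseudocount of 1. The adjusted p ran from 1.5e-08 to 0.010, and was highest without any filter on low values. None of the other 6 tested members was called in any of their 15 fits.

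**Figure D4:**
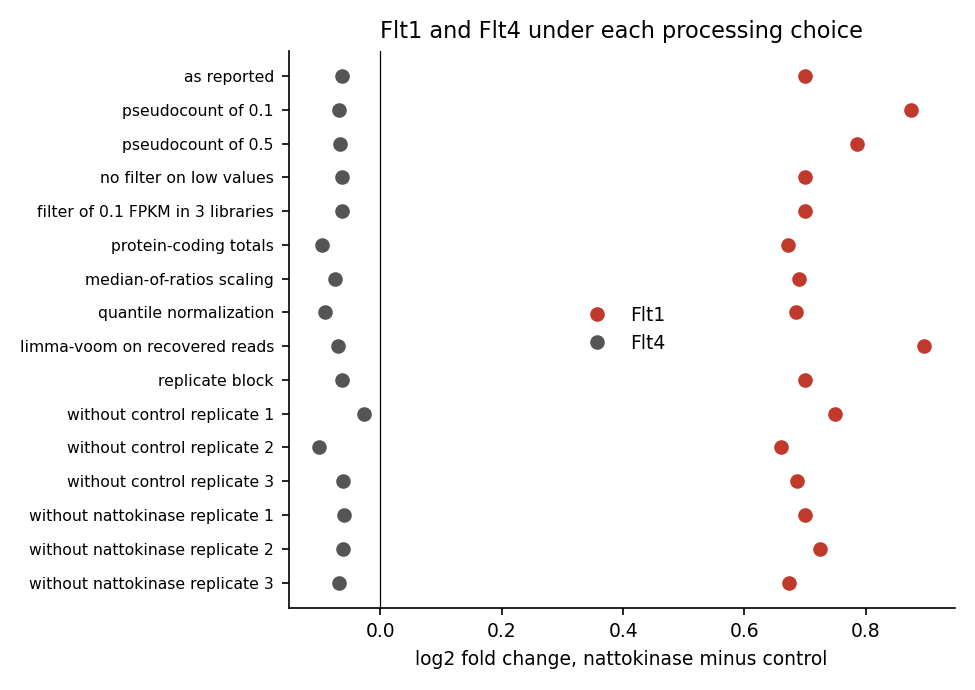
Log2 fold change (horizontal axis, nattokinase minus control) of Flt1 in red and Flt4 in grey for the fit as reported and each of 15 alternatives (rows). Flt1 lies between 0.66 and 0.90 and Flt4 between −0.10 and −0.027.

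Other genes of VEGF biology were taken from 7 lists drawn from textbook knowledge, without the 9 genes above. The lists were chosen with earlier results of these data known, so their shares are description and no independent support. Genes are in some cases in more than 1 list. Of 182 listed genes 138 were tested, of which 27 were called higher and 4 lower, or 19.6% and 2.90%, beside 5.61% and 3.24% of all genes tested, with a median log2 fold change of 0.055. Of the 27 called higher, 14 sit in the list of VEGF-induced transcripts, which holds immediate-early and NF-kB target genes that many other growth factors and stresses also induce. Over all 10913 genes tested limma-voom called 870 higher and 464 lower, against 612 and 354 in the main fit, so its list counts have a larger background. List counts at an unadjusted p under 0.05 are given without a share over all genes and are description only.

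Genes for ligand processing and matrix binding gave no call. Of 12 listed genes 9 were tested with limma and 0 were called, beside 8.85% of all genes tested. Also 0 had an unadjusted p under 0.05 or were called by limma-voom. Vegfd, the other ligand of Flt4, had 4.15 FPKM with nattokinase and 4.41 FPKM in the controls (limma adjusted p = 0.65), and Furin, a protease that cleaves pro-VEGF-C, had 12.1 FPKM with nattokinase and 12.9 FPKM in the controls (limma adjusted p = 0.34). Ccbe1 and Adamts3, whose products together activate VEGF-C, were below the filter, at 11 to 23 reads and 32 to 73 reads per library.

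Among 20 tested genes for receptor partners and trafficking, 2 were called higher and 1 lower, beside 5.61% and 3.24% of all genes tested. Such small counts cannot be told apart from those shares. Ptprj, a phosphatase that acts on the Kdr product, fell to 6.17 ± 0.16 FPKM with nattokinase, against 7.86 ± 0.44 FPKM in the controls (limma adjusted p = 0.010). Itgb1, the integrin beta 1 gene, rose to 309 ± 7.9 FPKM with nattokinase, against 258 ± 8.5 FPKM in the controls, and Dab2, an endocytic adaptor of VEGF receptors, to 38.2 ± 0.46 FPKM with nattokinase, against 32.9 ± 0.60 FPKM in the controls (SD, n = 3 each). The count called higher was 0 without nattokinase replicate 2, 1 without nattokinase replicate 3 or control replicate 2 or 3, and the call of Ptprj was lost without nattokinase replicate 2.

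Of 43 tested signal transduction genes 5 were called higher and 0 lower, beside 5.61% and 3.24% of all genes tested. Their median log2 fold change was 0.068. At an unadjusted limma p under 0.05 there were 14 and 2. By limma-voom 10 and 0 were called, where it called 870 and 464 of all 10913 genes tested. Vcl, the vinculin gene, rose to 96.4 ± 5.7 FPKM with nattokinase, against 70.0 ± 2.3 FPKM in the controls. Bcar1, an adhesion scaffold gene, rose by a log2 fold change of 0.21. The count was 8 without control replicate 1, 3 without control replicate 3 or nattokinase replicate 1, and 2 without control replicate 2 or nattokinase replicate 2 or 3, and Bcar1 kept its call in 9 of 15 alternatives.

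Of 21 tested VEGF-induced transcripts 14 were called higher and 1 lower, beside 5.61% and 3.24% of all genes tested. Their median log2 fold change was 0.31. Ccl2, a monocyte chemokine gene, Dusp1, a MAP kinase phosphatase gene, and Vcam1, a leukocyte adhesion gene, had the smallest p, with log2 fold changes of 1.07, 0.78 and 0.53. Igfbp3, which encodes a carrier of insulin-like growth factors, fell to 4.09 ± 0.40 FPKM with nattokinase, against 7.27 ± 0.58 FPKM in the controls. Among its genes below the filter, Esm1 and Sele had 0 reads, Dll4 and Aplnr had at most 2 and 5 reads per library, and Apln had 13 to 40. Leaving out single libraries gave 10 or 11 genes higher. The libraries with the higher levels of this list were also those with fewer 18S-like reads, and 12 were called higher after rescaling to protein-coding totals.

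Of 18 tested regulators of Vegfa transcription and mRNA decay 2 were called higher and 0 lower by limma, beside 5.61% and 3.24% of all genes tested. Limma-voom also called 2 and 0, and 4 and 2 had an unadjusted limma p under 0.05. Zfp36l1 rose to 22.4 ± 0.48 FPKM with nattokinase, against 17.6 ± 0.89 FPKM in the controls (limma adjusted p = 0.0030), and Zfp36 to 19.3 ± 1.1 FPKM with nattokinase, against 16.3 ± 0.81 FPKM in the controls (limma adjusted p = 0.034). Both encode proteins that bind AU-rich elements and speed the decay of mRNAs, Vegfa among them. Zfp36 lost its call in 7 of 15 alternatives, among them rescaling to protein-coding totals and leaving out control replicate 1 or 3 or nattokinase replicate 2 or 3. Hif1a, the oxygen-sensing activator of Vegfa, had 22.4 ± 2.0 FPKM with nattokinase and 21.6 ± 1.5 FPKM in the controls (limma adjusted p = 0.77).

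Of the 15 tested class 3 semaphorins, plexins and their partners 0 were called higher and 2 lower by limma, beside 5.61% and 3.24% of all genes tested. At an unadjusted limma p under 0.05 there were 2 and 3, and limma-voom called 2 and 3. Sema3e, whose product binds plexin D1 without a neuropilin, fell to 3.55 ± 0.12 FPKM with nattokinase, against 5.66 ± 0.40 FPKM in the controls (log2 fold change −0.55, limma adjusted p = 0.00082). Plxna4, a receptor gene for semaphorin 3A, fell to 5.83 ± 0.49 FPKM with nattokinase, against 8.49 ± 0.66 FPKM in the controls (log2 fold change −0.48, limma adjusted p = 0.0033). Sema3a, the ligand of Nrp1, had 9.38 ± 0.34 FPKM with nattokinase and 11.3 ± 1.4 FPKM in the controls (limma adjusted p = 0.086), and Sema3f, the ligand of Nrp2, had 26.9 ± 1.1 FPKM with nattokinase and 28.4 ± 1.2 FPKM in the controls (limma adjusted p = 0.44). The falls of Sema3e and Plxna4 kept their calls in all 15 alternatives. Without nattokinase replicate 1 the list also had 1 gene called higher.

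**Figure D5:**
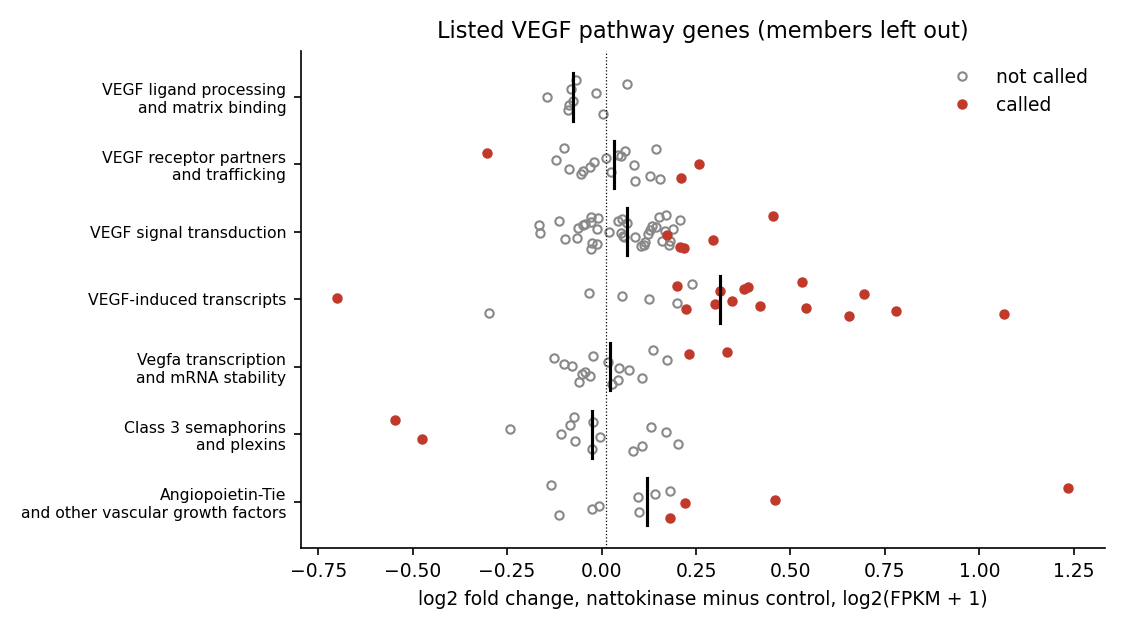
Log2 fold change (horizontal axis, nattokinase minus control on log2(FPKM + 1)) of each tested gene in 7 lists, filled where called, with a bar at the list's median and a dotted line at the median of all genes tested. The list of VEGF-induced transcripts has its median at 0.31, and the other medians lie between −0.076 and 0.12.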

How the data were processed

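RNA was sequenced from 3 nattokinase and 3 control libraries of SVEC4-10 cells, with groups and replicate numbers from the titles. The submitters' processing notes name HISAT2 2.1.0 and featureCounts 1.6.0, beside Trimmomatic 0.38 and DESeq2 1.22.1, without saying what each did. They give GRCh38 as the build, which is human, although the deposited identifiers are mouse ones. Strand use is not stated in the labels. The authors deposited FPKM for 55536 genes per library. GENCODE M21 (GRCm38) held 55536 of the identifiers. Dividing each value times merged exon length by 1 step per library gave whole reads, within 0.05, for 100% of values above 0. The unit and lengths come from the values themselves. The files held 0 columns of other samples.

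Values were fitted as log2(FPKM + 1) with limma 3.58.1 in R 4.3.3 (group as the only term, intensity trend, robust prior, two-sided), after the filter of 1 FPKM in 3 or more libraries. This scale understates changes of low genes. Folds are ratios of mean FPKM. Replicates correlated at 0.992 to 0.995, and chi-square per gene within groups averaged 2.56 to 12.2, above counting error. The fit was tested on simulated data with a spread set in advance, not estimated from these libraries, so that test cannot bear on these calls. Named genes are the 9 members and, of each list, up to 3 called genes in each direction with the smallest p, except that not every such gene is reported here. Hif1a, Furin, Vegfd, Sema3a, Sema3f, Ccbe1, Adamts3, Esm1, Sele, Dll4, Aplnr, Apln, Pdgfa, Pdgfc, Pdgfd, Pdgfra, Pdgfrb and the cell type markers were named after their values were seen. Exons of Dab2, Vcl, Dusp1, Vcam1, Zfp36l1, Zfp36, Plxna4, Thbs1, Adam17, Tagln and Nrg1 overlap another gene's, so some reads may belong to either gene. The members and lists were chosen with earlier results of these data known. Promoter windows are from RefSeq (GRCm38.p6), which had entries for all 9 members. Figures were drawn with matplotlib 3.10.9.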

Additional observations from a re-analysis of the deposited data

How the results depend on the processing

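The alternatives were pseudocounts of 0.1 and 0.5, other filters, rescaling to protein-coding totals, median-of-ratios scaling, quantile normalization, limma-voom on recovered reads, a replicate block, and 1 library left out at a time. Members called stayed at 1 higher and 0 lower under all 15. Over all genes 612 were higher and 354 lower as reported, and 221 and 109 without a filter on low values. Leaving out 1 library gave 330 to 726 higher and 193 to 481 lower. Without control replicate 2 there were 362 higher and 193 lower. Without nattokinase replicate 2 there were 330 and 198, and 342 and 197 when nattokinase replicate 3 was dropped. Without control replicate 3 there were 209 lower. The cause was not tested. Deviations from the group means correlated at −0.089, −0.044 and −0.059 between same-numbered replicates, and at −0.043 to 0.094 between the others. With 3 libraries per group such values cannot show whether the numbers pair the samples, and the labels do not say. With the replicate block 439 genes were higher and 249 lower, the log2 fold change of Flt1 was 0.70 (limma adjusted p = 0.0010), 0 receptor partners, 2 signal transduction genes and 2 vascular growth factor genes were called higher, and 11 VEGF-induced transcripts.

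Uncalled log2 fold changes near 0 turned negative as follows. With protein-coding totals they were −0.014 for Vegfb, −0.0031 for Vegfc and −0.023 for Nrp2. With quantile normalization they were −0.0028 for Vegfb and −0.0075 for Nrp2, and with median-of-ratios scaling −0.00093 for Nrp2. Leaving out 1 library gave ranges of −0.0093 to 0.042 for Vegfb, −0.029 to 0.066 for Vegfc and −0.013 to 0.053 for Nrp2. The difference in the Nrp1 to Nrp2 ratio (0.0092) ran from −0.0061 to 0.021 over left-out libraries, and was −0.0061 without nattokinase replicate 1. That in the Vegfc to Vegfa ratio (−0.0058) ran from −0.012 to 0.00022, reached without control replicate 3. With a pseudocount of 0.1 the untested log2 differences were 0.35 for Pgf and 0.077 for Kdr. Leaving out 1 library gave 0.018 to 0.18 for Pgf and −0.011 to 0.032 for Kdr, which was negative without nattokinase replicate 3. Depth limits Kdr and Pgf, which had at most 22 and 18 reads per library.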

Other observations

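Among other vascular growth factor genes Thbs1, Pdgfb, Pdgfa and Adam17 were called higher, while Pdgfc, Pdgfra and Pdgfrb were not called and Pdgfd had 0 reads. Of 12 tested genes in the list of angiopoietin, Tie and related genes 4 were called higher and 0 lower by limma, beside 5.61% and 3.24% of all genes tested. At an unadjusted limma p under 0.05 there were 6 and 0, and limma-voom called 5 and 0. The median log2 fold change was 0.12. Thbs1, which encodes an inhibitor of angiogenesis, rose to 366 ± 38 FPKM with nattokinase, against 155 ± 3.9 FPKM in the controls, and Pdgfb, a mitogen for mural cells, to 13.8 ± 0.89 FPKM with nattokinase, against 9.77 ± 0.57 FPKM in the controls (SD, n = 3 each). Adam17, a sheddase gene, had 13.4 ± 0.26 FPKM with nattokinase and 11.7 ± 0.083 FPKM in the controls, and it lost its call in 11 of 15 alternatives. The count was 2 after rescaling to protein-coding totals and without any library other than control replicate 1. The receptor genes Tek and Tie1 had at most 7 and 0 reads per library.

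The genes whose profile over the 6 libraries was most like that of Flt1 were Tagln, Adam12 and Nrg1, by the root mean square difference of centred log2 values (0.053, 0.061 and 0.061) among 9957 named protein-coding candidates. Tagln, the transgelin gene, had 3.32 ± 0.22 FPKM with nattokinase and 1.67 ± 0.20 FPKM in the controls. Adam12, a metalloprotease gene, had 6.05 ± 0.22 FPKM with nattokinase and 3.58 ± 0.18 FPKM in the controls, and Nrg1, the neuregulin 1 gene, had 9.45 ± 0.31 FPKM with nattokinase and 5.68 ± 0.27 FPKM in the controls (SD, n = 3 each). The likeness includes the difference between groups and is a description without a test.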
